A study of Mus musculus with 25 samples.

Results

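Pecam1, Cdh5, Kdr, Flt1, Tek, Angpt2, Vcam1, Icam1, Sele and Selp are genes of the blood vessel lining and of the steps by which leukocytes leave the blood. They were taken by gene symbol and make up 10 of the 55450 genes in the deposited count table. By known role they fall into 5 vessel identity genes (Pecam1, Cdh5, Kdr, Flt1 and Tek), 1 vessel remodelling ligand (Angpt2) and 4 leukocyte adhesion genes (Vcam1, Icam1, Sele and Selp). The question was how the identity genes compared with the adhesion genes over the 4 groups of tumours.

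The RNA came from 25 melanomas grown in C57BL/6 mice from B2905, a cultured mouse melanoma line that is also called M4. Dosing started when tumours averaged 75 mm3, at 10 mg/kg of antibody per dose, with 2 doses a week over 2 weeks. Of the 40 mice implanted, 30 were given an antibody against CTLA-4, a brake on T cells, and 5 were given IgG2b, an isotype antibody without that target; the other 5, which got no antibody, were not analysed here. Outcome was assigned 10 to 11 days after dosing ended. Responders (n = 8) received anti-CTLA-4 and their tumours shrank. Stable tumours (n = 6) received the same antibody and kept their size, and non-responders (n = 6) received it and kept growing. Together these groups hold fewer tumours than the 30 mice given anti-CTLA-4, so they are not the full treated cohort. Controls (n = 5) received IgG2b. Every tumour therefore came from the same line and strain and was exposed to an antibody, and each gave 1 library of bulk RNA. In such libraries, fewer vessel cells and less RNA per vessel cell cannot be told apart. Replicates are separate tumours numbered in record order, and p-values measure the spread between them.

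Endothelial cells hold their junctions together with homophilic adhesion proteins such as VE-cadherin (Cdh5) and PECAM-1 (Pecam1). They take growth and stability signals through tyrosine kinase receptors for VEGF (Kdr and Flt1) and for the angiopoietins (Tek). When inflammatory cytokines reach a vessel, its endothelium displays selectins, which slow leukocytes, and immunoglobulin-type ligands, which stop them by binding their integrins. Cdh5 is among the genes most restricted to endothelium. Flt1, Icam1, Vcam1 and Pecam1 are also made by macrophages, other leukocytes or stromal cells.

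The libraries held 8.76 to 34.3 M counts, and their composition differed by group. Protein-coding genes took 82.9% to 89.2% of counts in the 17 tumours of the other groups and 23.8% to 87.0% in responders, with responders 1 (23.8%) and 4 (54.2%) lowest. Mitochondrial rRNA made up 1.15% to 14.3% of a responder's counts and 1.31% to 7.28% of a stable tumour's. Those ranges lay wholly above the 0.783% to 1.06% of non-responders and the 0.546% to 0.966% of controls, and the part of this share in the results was not tested. The protein-coding share could not be separated from outcome by design, so values with it as a covariate, or without responders 1 and 4, a choice made after seeing the data, are given where they end a call. The tumours' library numbers follow the groups, so processing order and group cannot be told apart. The summed level of 24 other endothelial identity genes, in CPM (counts per M counts of the TMM-scaled library), was 214 to 326 in responders, 335 to 433 in stable tumours, 382 to 621 in non-responders and 329 to 458 in controls, so endothelial RNA was present in all 25 tumours.

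Against non-responders, responders had lower RNA for 4 of the 5 identity genes and for Angpt2, higher RNA for Flt1, and no called difference in the 4 adhesion genes. Thus 6 of the 10 genes were called (edgeR quasi-likelihood test, Benjamini-Hochberg adjusted p under 0.05), in a comparison that called 48.9% of all tested genes, 25.2% higher and 23.8% lower. The median log2 fold change was -1.22 over the identity genes and 0.09 over the adhesion genes, beside 0.05 over the 18031 tested genes. No adhesion gene had an unadjusted p under 0.05 with edgeR either, and DESeq2 and limma on log2(RPKM + 1) also called none of the 4. An edgeR test of whether a change exceeded 2-fold left 2 of the 6 calls, Kdr and Angpt2. Cdh5 (2.89-fold) and Tek (2.32-fold) had estimates above 2-fold but did not pass it.

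Stable tumours resembled responders in direction for the VEGF receptors and Angpt2. Against non-responders, 4 genes were called, with Cdh5, Kdr and Angpt2 lower and Flt1 higher, where 14.9% of all tested genes were called (7.08% higher and 7.86% lower). The adhesion genes had a median log2 fold change of 0.82 and none was called with edgeR, although 2 of the 4 (Vcam1 and Icam1) had an unadjusted p under 0.05, and DESeq2 and limma on log2(RPKM + 1) each called 1, Icam1. Between responders and stable tumours, 5 genes were called, all lower in responders (Pecam1, Cdh5, Tek, Angpt2 and Vcam1), where 38.2% of all tested genes were called (17.8% lower). These 5 calls were all lost when the protein-coding share was added as a covariate, when 1 of the 10 genes had an unadjusted p under 0.05 and edgeR called no gene among the 18031. Without responders 1 and 4, 1 of the 5 stayed called, Angpt2. For none of the 10 genes did stable tumours lie wholly apart from responders or from non-responders, where 0.715% and 5.01% of all tested genes had groups that did not overlap.

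Against controls, each adhesion gene that was called was higher. The comparisons with controls share the same 5 tumours, so they are given side by side. Responders differed in 7 genes, 3 higher and 4 lower, where 65.0% of all tested genes were called (36.1% higher and 28.9% lower). Stable tumours differed in 8, 5 higher and 3 lower, where 41.8% were called (22.2% higher and 19.6% lower). Non-responders differed in 3, 2 higher and 1 lower, where 13.9% were called (10.6% higher and 3.29% lower). Of the 4 adhesion genes, 2 were higher in responders, 4 in stable tumours and 2 in non-responders, with median log2 fold changes of 0.97, 1.88 and 1.06. In responders the count was 4 without responders 1 and 4, and 3 with the share covariate. Of the 5 identity genes, 3 were lower and 1 higher in responders, and 2 were lower and 1 higher in stable tumours. In non-responders none of the 5 was called with edgeR, and none had an unadjusted p under 0.05; DESeq2 called none and limma on log2(RPKM + 1) called none. Across all tested genes the median log2 fold change of responders over controls was 0.16, which fell to 0.04 when only protein-coding genes set the library sizes.

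**Figure D1:**
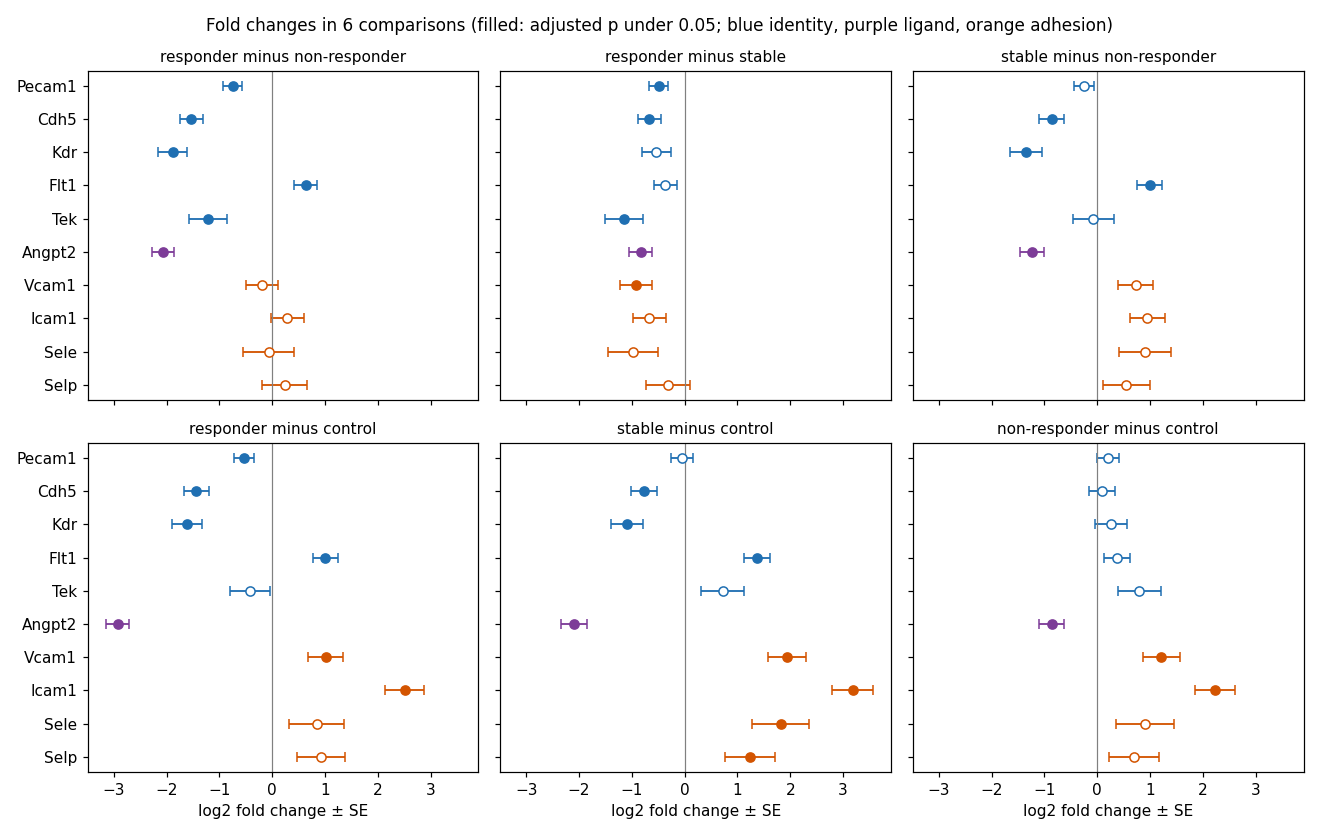
Log2 fold changes (x axis) of the 10 genes (rows, by role) in 6 comparisons, from the edgeR fit over 25 tumours, with bars of 1 standard error on each side and filled points where the adjusted p is under 0.05. The identity genes except Flt1 lie left of 0 in responders against non-responders, while the adhesion genes lie right of 0 against controls.

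Among the identity genes, Cdh5 encodes VE-cadherin, the adherens junction protein of endothelium (GRCm38 chromosome 8, 104101625 to 104144511, plus strand). Its levels in the 5 controls were 29.4, 44.7, 51.3, 32.0 and 36.0 CPM. Non-responders had a lowest, median and highest level of 26.4, 36.4 and 60.8 CPM, stable tumours of 14.8, 22.0 and 34.1 CPM, and responders of 7.81, 13.8 and 21.6 CPM. Every responder was below every non-responder and every control, while stable tumours overlapped all other groups. The log2 fold change was -1.53 (SE 0.22, edgeR adjusted p = 4.01e-05) for responders over non-responders and -1.43 (SE 0.23, adjusted p = 1.26e-05) over controls. Groups that did not overlap were found for 5.01% of all tested genes in the first comparison and 30.0% in the second. The log2 fold change of stable tumours over non-responders was -0.86 (SE 0.24, edgeR adjusted p = 0.0173). Responders were lower than stable tumours by -0.67 (SE 0.22, edgeR adjusted p = 0.022), a call lost without stable tumour 1 (-0.52) or with the share covariate (-0.37). That call was also lost without responders 1 and 4 (-0.53) and in limma on log2(RPKM + 1) (-0.42) and log2(RPKM + 0.1) (-0.54). Non-responders and controls differed by 0.09 (SE 0.25, adjusted p = 0.827).

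Pecam1 encodes PECAM-1, or CD31, a junction protein of endothelium that platelets and many leukocytes also carry (chromosome 11, 106654217 to 106750628, minus strand). Control levels were 39.4, 57.7, 50.3, 35.6 and 40.2 CPM. From lowest through median to highest, levels were 33.7, 48.9 and 72.0 CPM in non-responders, 31.5, 46.9 and 50.9 CPM in stable tumours and 20.6, 30.1 and 44.7 CPM in responders. All groups overlapped, and 5 of the 8 responders were below every non-responder. Pecam1 was lower in responders than in non-responders, with a log2 fold change of -0.74 (SE 0.18, edgeR adjusted p = 0.00213), and the call was lost with the share covariate (-0.51, adjusted p = 0.131). Its fall against controls (-0.54, SE 0.19, edgeR adjusted p = 0.0149) was lost without control 2 (-0.44), without responders 1 and 4 (-0.42), with the covariate (-0.29), in limma on log2(RPKM + 1) (-0.40) and under a stricter filter on low counts (-0.41). That against stable tumours (-0.49, edgeR adjusted p = 0.0361) was lost without any 1 of stable tumours 1 (-0.47), 2 (-0.45), 3 (-0.44) and 4 (-0.44) or responders 1 (-0.43), 4 (-0.43), 7 (-0.49) and 8 (-0.42). The call against stable tumours was also lost with the covariate (-0.25), without responders 1 and 4 (-0.38) and in limma on log2(RPKM + 1) (-0.30). Of the 4 identity genes called lower in responders than in non-responders, Pecam1 had the smallest fall.

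The VEGF receptors Kdr and Flt1 are paralogues on mouse chromosome 5 that moved in opposite directions. Kdr encodes VEGFR2, the main signalling receptor for VEGF-A (75932827 to 75978458, minus strand), and Flt1 encodes VEGFR1, which binds VEGF-A tightly, also exists as a soluble decoy and is carried by monocytes and macrophages (147561604 to 147726011, minus strand). The bases just upstream of both starts are shown so that the pair can be compared. They come from the RefSeq promoters of GRCm38.p6, at chr5:75978459-75978655 for Kdr and chr5:147726012-147726211 for Flt1, both on the minus strand and read 5′ to 3′. Capitals mark matches on either strand to the NF-κB consensus and to the ETS core AGGAAG.
Kdr: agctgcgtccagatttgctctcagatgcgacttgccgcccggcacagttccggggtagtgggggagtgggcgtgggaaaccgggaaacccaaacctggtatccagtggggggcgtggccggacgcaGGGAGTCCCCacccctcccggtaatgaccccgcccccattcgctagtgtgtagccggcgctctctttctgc
Flt1: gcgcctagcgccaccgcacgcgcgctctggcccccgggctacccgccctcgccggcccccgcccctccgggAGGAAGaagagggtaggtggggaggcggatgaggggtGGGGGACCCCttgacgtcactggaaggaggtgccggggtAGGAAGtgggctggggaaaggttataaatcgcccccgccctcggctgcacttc
Each window held 1 NF-κB match, and Flt1 held 2 ETS cores besides. Of 32851 promoter windows of 300 bases, 4.51% held the NF-κB consensus and 35.4% an ETS core. A match is a description of letters and not of a used site, and neither gene's window matched the interferon response pattern GAAANNGAAA (3.44% of windows) or the AP-1 motif TGANTCA (7.81%).

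Kdr levels in controls were 42.5, 56.6, 52.6, 45.5 and 54.1 CPM. The lowest, median and highest levels were 35.9, 54.2 and 94.4 CPM in non-responders, 16.0, 22.7 and 38.1 CPM in stable tumours and 5.36, 13.9 and 36.1 CPM in responders. Every responder and every stable tumour was below every control. Groups that did not overlap with controls were found for 30.0% of all tested genes in responders and 35.5% in stable tumours. Responder 7, at 36.1 CPM, was the highest responder by far and alone kept the responders from lying wholly below the non-responders. The log2 fold change over non-responders was -1.89 (SE 0.27, edgeR adjusted p = 4.12e-05) in responders and -1.35 (SE 0.29, adjusted p = 0.00527) in stable tumours. Over controls it was -1.62 (SE 0.28, adjusted p = 3.41e-05) and -1.08 (SE 0.30, adjusted p = 0.00559). Responders and stable tumours differed by -0.54 (SE 0.27, edgeR adjusted p = 0.12), which passed the threshold without responder 7 (-0.81).

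Flt1 went the other way. Control levels were 44.0, 55.5, 53.0, 58.1 and 47.9 CPM. From lowest through median to highest, levels were 40.9, 63.3 and 113 CPM in non-responders, 110, 129 and 181 CPM in stable tumours and 48.1, 94.3 and 160 CPM in responders. Every stable tumour was above every control, a comparison in which 35.5% of all tested genes had groups that did not overlap. Non-responder 6 (113 CPM) lay among the stable tumours, and responder 7 (48.1 CPM) lay among the controls. Flt1 rose over non-responders by 1.00 (SE 0.24, edgeR adjusted p = 0.00791) in stable tumours and by 0.63 (SE 0.22, adjusted p = 0.0225) in responders on the log2 scale. The second call was lost in a fit of the 2 groups alone (0.64), when low counts were not filtered (0.56), and when non-responder 2 (0.56) or 3 (0.53) was left out. Over controls, Flt1 rose by 1.37 (SE 0.25, adjusted p = 0.000125) in stable tumours and by 1.01 (SE 0.24, adjusted p = 0.000877) in responders. The summed level of 8 macrophage markers was 636 to 1178 CPM in controls, while anti-CTLA-4 tumours had 1046 to 8339 CPM (non-responders), 6118 to 9390 CPM (stable) and 2467 to 10319 CPM (responders). All 8 were detected in every group, and their part in the Flt1 result was not tested.

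On the per-length scale, the deposited RPKM of Flt1 divided by that of Kdr was 0.801 ± 0.130 in controls (SD, n = 5) and 1.01 ± 0.731 in non-responders (SD, n = 6). It was 4.97 ± 2.27 in stable tumours (SD, n = 6) and 6.49 ± 4.13 in responders (SD, n = 8). Kdr RNA was thus at or above Flt1 RNA per length in most controls and non-responders, and Flt1 RNA exceeded Kdr RNA in all 14 stable and responding tumours. The lowest ratio among those 14 was 1.03 in responder 7, and the highest among non-responders was 2.49 in non-responder 6.

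**Figure D2:**
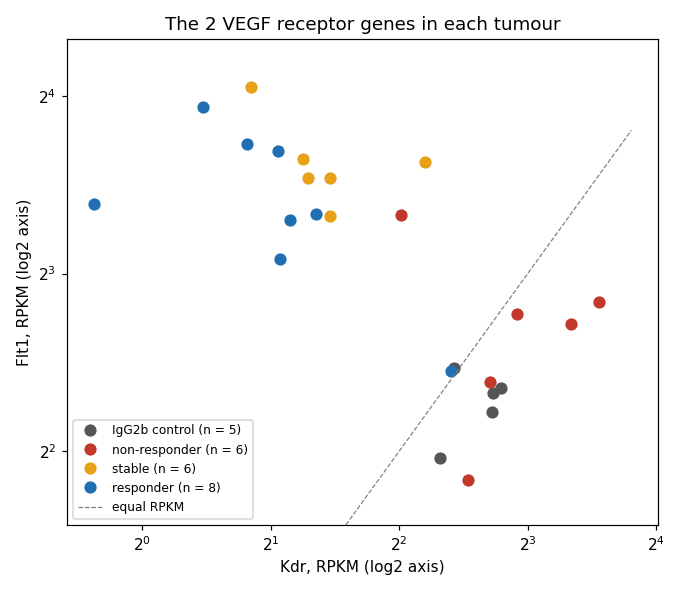
Deposited RPKM of Kdr (x) and Flt1 (y) in the 25 tumours, on log2 axes of different length, with 1 point per tumour coloured by group and a dashed line where both values are equal. Stable tumours and 7 of 8 responders lie well to the Flt1 side, responder 7 lies on the line at a ratio of 1.03, and non-responder 6 lies with the stable tumours.

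Tek encodes TIE2, the angiopoietin receptor, which keeps resting vessels stable (chromosome 4, 94739289 to 94874976, plus strand). Control levels were 4.07, 8.14, 6.69, 4.47 and 6.31 CPM. The lowest, median and highest levels were 6.53, 8.68 and 19.9 CPM in non-responders, 4.79, 9.16 and 16.6 CPM in stable tumours and 1.12, 4.45 and 7.41 CPM in responders. Responders overlapped every other group. Tek fell in responders, with a log2 fold change of -1.22 over non-responders (SE 0.36, edgeR adjusted p = 0.0087) and over stable tumours of -1.14 (SE 0.36, adjusted p = 0.0173). The first call was lost with the share covariate (-0.63). The second was lost with it (-0.54), without stable tumour 3 (-0.93), without responders 1 and 4 (adjusted p = 0.0529) and in limma on log2(RPKM + 1) (-0.44, on that compressed scale). No difference from controls was called in any group, with log2 fold changes of -0.42, 0.72 and 0.79 for responders, stable tumours and non-responders.

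Angpt2, the angiopoietin that destabilises vessels by competing for TIE2, had, in counts, the most negative fold change of the 10 genes in each comparison with controls and in responders against non-responders (chromosome 8, 18690263 to 18741562, minus strand). Control levels were 52.1, 42.0, 52.3, 62.7 and 49.8 CPM. Levels ran from a lowest through a median to a highest of 14.7, 22.8 and 50.9 CPM in non-responders, 8.42, 12.5 and 15.9 CPM in stable tumours and 5.13, 6.75 and 9.44 CPM in responders. Every responder was below every non-responder and control, and every stable tumour was below every control. Groups that did not overlap were found for 5.01% of all tested genes in responders against non-responders. Against controls the shares were 30.0% in responders and 35.5% in stable tumours. The 3 anti-CTLA-4 groups were each lower than controls, by log2 fold changes of -2.93 in responders (SE 0.23, edgeR adjusted p = 3.76e-08), -2.10 in stable tumours (SE 0.24, adjusted p = 9.39e-07) and -0.86 in non-responders (SE 0.23, adjusted p = 0.0152). The last call was lost without control 4 (-0.78) and in a fit of the 2 groups alone (-0.90). Over non-responders the values were -2.07 in responders (SE 0.22, adjusted p = 6.51e-06) and -1.24 in stable tumours (SE 0.23, adjusted p = 0.0028).

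Whether Angpt2 differed between responders and stable tumours depended on the deposited table. In counts it was lower in responders by -0.83 (SE 0.22, edgeR adjusted p = 0.00672). In limma on log2(RPKM + 1) the difference was -0.08 (adjusted p = 0.767), with means of 2.91 ± 0.798 RPKM in responders and 3.12 ± 0.755 RPKM in stable tumours (SD). The RPKM of Angpt2 per CPM had a median of 0.412 in responders, 0.264 in stable tumours, 0.262 in non-responders and 0.238 in controls, with a range from 0.276 to 0.657 over responders. That gap between the scales touches every comparison of responders: over non-responders, limma on log2(RPKM + 1) gave -1.07 for Angpt2, beside -1.42 for Kdr and -1.20 for Cdh5. For Pecam1 the corresponding medians stayed between 0.207 and 0.234. Angpt2 lies within Mcph1, a gene on the opposite strand (18595131 to 18803189, plus strand), and no source used here states whether counting used strand. Cdh5, Vcam1, Icam1 and Selp also overlap noncoding genes on the opposite strand. Melanoma markers, like Angpt2, were lower in responders and in stable tumours than in controls. Between responders and stable tumours none of the 7 markers was called, with a median log2 fold change of 0.19. The sum of 7 such markers was 10504 to 17110 CPM in controls, while anti-CTLA-4 tumours had 723 to 13868 CPM (non-responders), 227 to 504 CPM (stable) and 303 to 722 CPM (responders), and its part in the Angpt2 result was not tested.

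**Figure D3:**
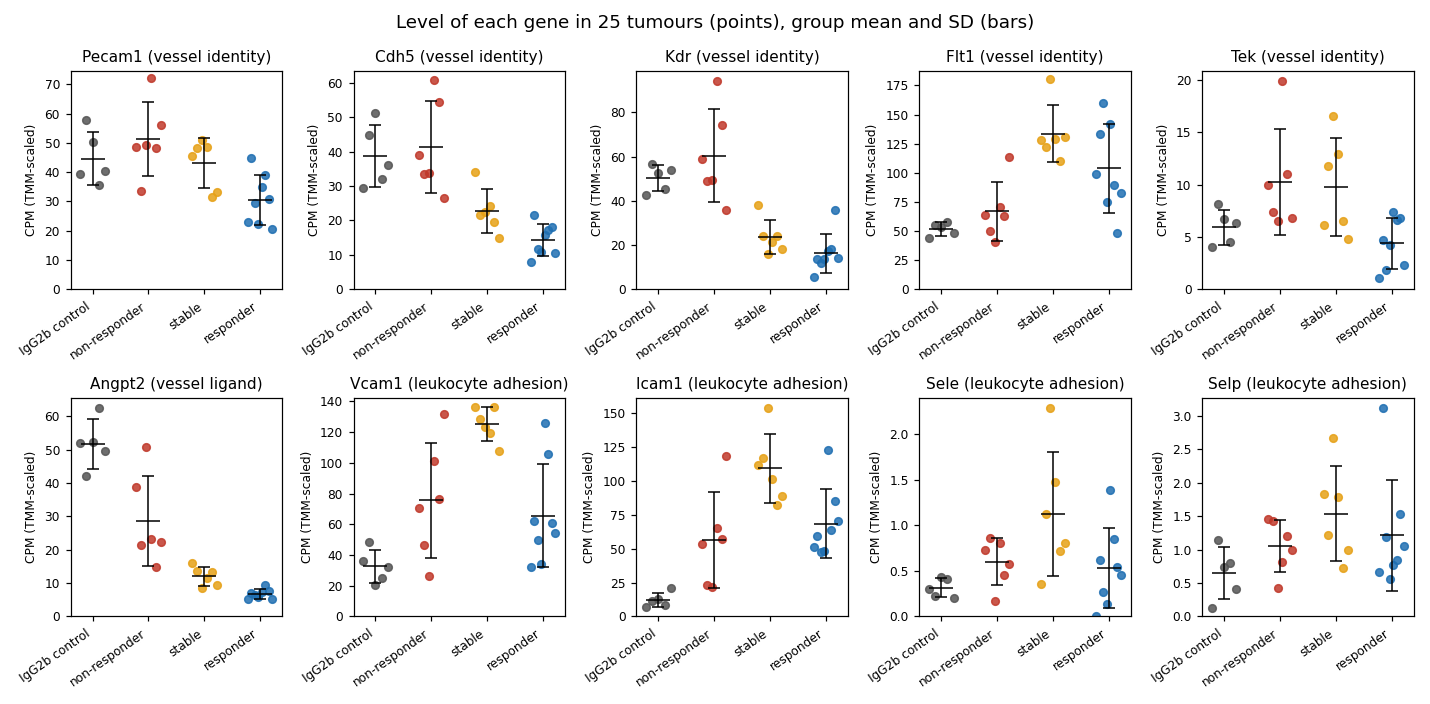
TMM-scaled CPM (y axis, linear, its range set per panel) for each of the 10 genes in the 25 tumours (points), by group, with bars at the mean and 1 SD on each side. Cdh5, Kdr and Angpt2 are low in responders and stable tumours, whereas Icam1 and Vcam1 are lowest in controls.

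Among the adhesion genes, Icam1 differed most from controls. Icam1 encodes ICAM-1, the ligand of the leukocyte integrins LFA-1 and Mac-1, which cytokines raise on endothelium and on many other cells (chromosome 9, 21015985 to 21028817, plus strand). Control levels were 7.17, 11.1, 12.8, 8.44 and 20.8 CPM. Levels ran from a lowest through a median to a highest of 22.0, 55.2 and 118 CPM in non-responders, 82.4, 106 and 154 CPM in stable tumours and 47.2, 61.8 and 123 CPM in responders. Every anti-CTLA-4 tumour, whatever its outcome, was above every control. Groups that did not overlap with controls were found for 30.0% of all tested genes in responders, 35.5% in stable tumours and 4.08% in non-responders. The log2 fold change over controls was 2.51 in responders (SE 0.37, edgeR adjusted p = 4.6e-06), 3.18 in stable tumours (SE 0.39, adjusted p = 1.5e-06) and 2.23 in non-responders (SE 0.37, adjusted p = 0.000551). These were 5.71-fold, 9.07-fold and 4.69-fold differences. Stable tumours and non-responders differed by 0.95 (SE 0.33, edgeR adjusted p = 0.0561), which passed the threshold without non-responder 6 (1.31), with DESeq2 (0.96), with limma on log2(RPKM + 1) (1.01) and with a stricter low-count filter (0.95). Responders and stable tumours differed by -0.67 (edgeR adjusted p = 0.0875), which passed without responder 5 (-0.84).

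Vcam1 encodes VCAM-1, the ligand of the integrin VLA-4, found on activated endothelium and on some macrophages and stromal cells (chromosome 3, 116109949 to 116129688, minus strand). Control levels were 36.3, 48.7, 20.4, 24.8 and 32.5 CPM. The lowest, median and highest levels were 26.6, 73.6 and 132 CPM in non-responders, 108, 126 and 136 CPM in stable tumours and 32.1, 57.4 and 126 CPM in responders. Stable tumours formed a narrow band above every control, while responders and non-responders were spread between the 2. Stable tumours and controls did not overlap in 35.5% of all tested genes. Over controls Vcam1 rose by 1.94 on the log2 scale in stable tumours (SE 0.36, edgeR adjusted p = 0.00012), by 1.21 in non-responders (SE 0.35, adjusted p = 0.0214) and by 1.02 in responders (SE 0.33, adjusted p = 0.0102). The non-responder call was lost without control 3 (1.08) or 4 (1.13), without non-responder 4 (1.11) or 6 (0.98), when low counts were not filtered (1.11) and in a fit of the 2 groups alone (1.18). Vcam1 was lower in responders than in stable tumours by -0.93 (SE 0.30, edgeR adjusted p = 0.02), a call lost with the share covariate (-0.41) and without responders 1 and 4 (-0.72). Over non-responders it was not called in responders, and in stable tumours its 0.73 (edgeR adjusted p = 0.136) passed without non-responder 6 (0.96). The macrophage marker sums given beside Flt1 were likewise lowest in controls and highest at their median in stable tumours, and their part in the Icam1 and Vcam1 results was not tested.

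Sele and Selp encode E-selectin and P-selectin, neighbours on chromosome 1 (164048234 to 164057677 and 164115264 to 164150026, both plus strand). E-selectin is made by endothelium after cytokine exposure, and P-selectin is stored in endothelium and in platelets for rapid release. The 200 bases upstream of each start (chr1:164048034-164048233 for Sele and chr1:164115064-164115263 for Selp, plus strand, RefSeq, GRCm38.p6) are shown because each held matches to the same 2 motifs. Capitals mark the AP-1 motif TGANTCA and the ETS core AGGAAG on either strand.
Sele: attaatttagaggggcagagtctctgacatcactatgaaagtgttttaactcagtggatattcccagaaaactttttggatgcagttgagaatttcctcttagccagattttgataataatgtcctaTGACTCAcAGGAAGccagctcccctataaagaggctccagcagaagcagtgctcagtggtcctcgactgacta
Selp: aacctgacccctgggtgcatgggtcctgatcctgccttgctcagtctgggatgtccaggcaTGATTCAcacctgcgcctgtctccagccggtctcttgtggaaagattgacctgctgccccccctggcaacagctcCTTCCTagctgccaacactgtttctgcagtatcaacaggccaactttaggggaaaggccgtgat
In Sele, 1 base lay between the AP-1 match and the ETS core. In Selp they lay further apart, and a second ETS core fell at bases 19 to 24 after the start. Neither window held an NF-κB or interferon response match, and the same windows of Icam1 and Tek held none of the 4 motifs; this says only that those letters were not there.

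Both selectins were scarce. Sele had 0 to 41 counts per tumour and Selp 3 to 48, so depth limited both. Sele levels in controls were 0.300, 0.221, 0.430, 0.411 and 0.207 CPM. Its lowest, median and highest levels were 0.172, 0.652 and 0.864 CPM in non-responders, 0.353, 0.965 and 2.29 CPM in stable tumours and 0, 0.496 and 1.39 CPM in responders. The 0 was responder 1, where a count of 0 allows up to 0.670 CPM at 3 counts, more than the median responder level; this floor covers counting error only. Sele was higher in stable tumours than in controls by a log2 fold change of 1.82 (SE 0.54, edgeR adjusted p = 0.00912), and not called in the other 5 comparisons. Over controls it was 0.84 in responders (adjusted p = 0.162), which passed the threshold without responders 1 and 4 (1.12, adjusted p = 0.0454) and with the share covariate (2.23, adjusted p = 0.00378). The difference between responders and stable tumours (-0.97) passed without responder 5 (-1.36).

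Selp levels in controls were 0.133, 1.14, 0.743, 0.794 and 0.414 CPM. Its lowest, median and highest levels were 0.430, 1.10 and 1.46 CPM in non-responders, 0.718, 1.5 and 2.68 CPM in stable tumours and 0.559, 0.951 and 3.12 CPM in responders. All groups overlapped for both selectins. Selp was higher in stable tumours than in controls by 1.24 (SE 0.48, edgeR adjusted p = 0.0394), and this was lost without any 1 of controls 1 (0.97), 3 (1.29), 4 (1.32) and 5 (1.12) or stable tumours 1 (1.18), 3 (1.01) and 4 (1.18). In responders Selp was 0.93 over controls (edgeR adjusted p = 0.0778), which passed without responders 1 and 4 (1.13, adjusted p = 0.042) and without control 2 (1.22). Of 8 platelet and megakaryocyte markers, 4 passed the filter, and their sum was 13.1 to 20.7 CPM in controls, while anti-CTLA-4 tumours had 16.1 to 65.8 CPM (non-responders), 20.2 to 55.1 CPM (stable) and 21.0 to 81.0 CPM (responders). Gp9 was at 0 in responders. The part of platelet RNA in the Selp values was not tested.

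On the per-length scale, the order of the genes changed between groups. In controls the highest mean RPKM belonged to Angpt2 (12.4 ± 1.72), then Pecam1 (9.65 ± 2.22), Cdh5 (7.23 ± 1.87), Vcam1 (6.48 ± 2.25), Kdr (6.11 ± 0.861), Flt1 (4.84 ± 0.620) and Icam1 (3.35 ± 1.44). The ranges of neighbours in that order overlapped. In stable tumours Icam1 (29.7 ± 6.47 RPKM) and Vcam1 (24.2 ± 2.25 RPKM) were highest and Flt1 (12.5 ± 2.21 RPKM) followed, while Kdr stood at 2.78 ± 0.949 RPKM. Responders had the same first 3, with Icam1 at 21.0 ± 7.01, Vcam1 at 13.6 ± 6.54 and Flt1 at 10.7 ± 3.08 RPKM. In non-responders Icam1 (16.1 ± 9.25 RPKM) and Vcam1 (15.4 ± 7.30 RPKM) led as well, with Pecam1 (11.3 ± 2.66 RPKM) next. Tek, Selp and Sele were the lowest 3 in all 4 groups, with Sele lowest at 0.094 to 0.306 RPKM.

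The balance between roles was summarised per tumour as the mean log2 CPM of the 4 adhesion genes minus that of the 5 identity genes. It was -1.43 ± 0.31 in responders, -1.32 ± 0.26 in stable tumours, -2.43 ± 0.54 in non-responders and -3.29 ± 0.15 in controls (SD). The identity mean alone was 4.21 ± 0.46, 4.92 ± 0.27, 5.21 ± 0.36 and 4.92 ± 0.24 in the same order of groups. The adhesion mean was 2.77 ± 0.63, 3.60 ± 0.37, 2.79 ± 0.63 and 1.63 ± 0.29. Stable tumours and responders thus had a similar balance at different levels, with both the adhesion mean and the identity mean lower in responders than in stable tumours. The identity mean joins genes that moved in opposite directions. Over controls, stable tumours had lower Cdh5 (-0.77) and Kdr (-1.08) and higher Flt1 (1.37), while Pecam1 (-0.05) and Tek (0.72) were not called. In the adhesion mean, Sele and Selp weigh as much as Icam1 and Vcam1 despite their few counts.

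Each gene was also set against Cdh5 in the same tumour, as a difference of log2 CPM, so that library scaling cancels. Cdh5 itself was lower in responders and stable tumours, so a gene with an unchanged level has a higher ratio there. Of 54 such tests (9 genes, 6 comparisons, two-sided exact permutation tests adjusted over the 54), 31 had an adjusted p under 0.05. The genes were proposed with results of these data known, and the ratios repeat the levels above in another form. Ratios of the other tested genes to Cdh5 were not computed. Counts of ratios that were called, or that did not overlap between groups, thus have no share over all genes beside them. For responders against non-responders, 6 of the 9 ratios were higher in responders, for Pecam1, Flt1, Vcam1, Icam1, Sele and Selp. The levels of Vcam1, Icam1, Sele and Selp themselves were not called in that comparison, while Cdh5 was lower. Selp relative to Cdh5 was higher in 8 of 8 responders than in any non-responder, by 1.63 (exact permutation p = 0.000333, the smallest that 8 against 6 allows for a two-sided split; adjusted p = 0.00599), and the call was lost with Pecam1 as the reference (0.85, adjusted p = 0.0702). Relative to Cdh5, Flt1 stood 2.16 higher in responders (exact p = 0.000999, adjusted p = 0.00674), with 7 of the 8 above all non-responders.

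The ratios of Kdr and Angpt2 depended on the reference gene. Kdr relative to Cdh5 was lower by 0.45 in responders than in non-responders (exact permutation p = 0.0623, adjusted p = 0.0961), and relative to Pecam1 it was called (-1.23, adjusted p = 0.0153). Relative to Cdh5 it was lower by 0.49 in stable tumours, where 6 of 6 tumours were below all non-responders (exact p = 0.00216, adjusted p = 0.00688). Angpt2 relative to Cdh5 differed by -0.42 between responders and non-responders (exact p = 0.241, adjusted p = 0.298), while relative to Pecam1 it was called there (-1.21, adjusted p = 0.00835), with 8 of 8 responders below all non-responders. Relative to Cdh5 it was lower than in controls by 1.46 in responders (exact p = 0.000777, adjusted p = 0.00599) and by 1.33 in stable tumours (exact p = 0.00216, adjusted p = 0.00688). Between responders and stable tumours none of the 9 ratios was called by the exact permutation test, and none had an unadjusted p under 0.05. The Sele ratio in responders against non-responders (1.13, exact p = 0.0263, adjusted p = 0.0458) was lost with a prior count of 0.5 (0.89), with Pecam1 as the reference (0.35), and without any 1 of non-responders 1, 3, 4 and 5 or responders 2, 3, 5, 6, 7 and 8 (0.93 to 1.21). The Vcam1 ratio there (1.37) was also lost with Pecam1 as the reference (0.58, adjusted p = 0.13). Against controls, Pecam1 as the reference added calls for Kdr in responders (-1.22) and stable tumours (-1.07) and for Angpt2 in non-responders (-1.16). It also ended calls there. The Tek ratio was called over controls in responders (0.85), stable tumours (1.40) and non-responders (0.65) with Cdh5 as the reference. With Pecam1 these were -0.060, 0.67 and 0.52, none of them called. The Sele ratio in responders went from 1.75, called, to 0.84, not called.

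**Figure D4:**
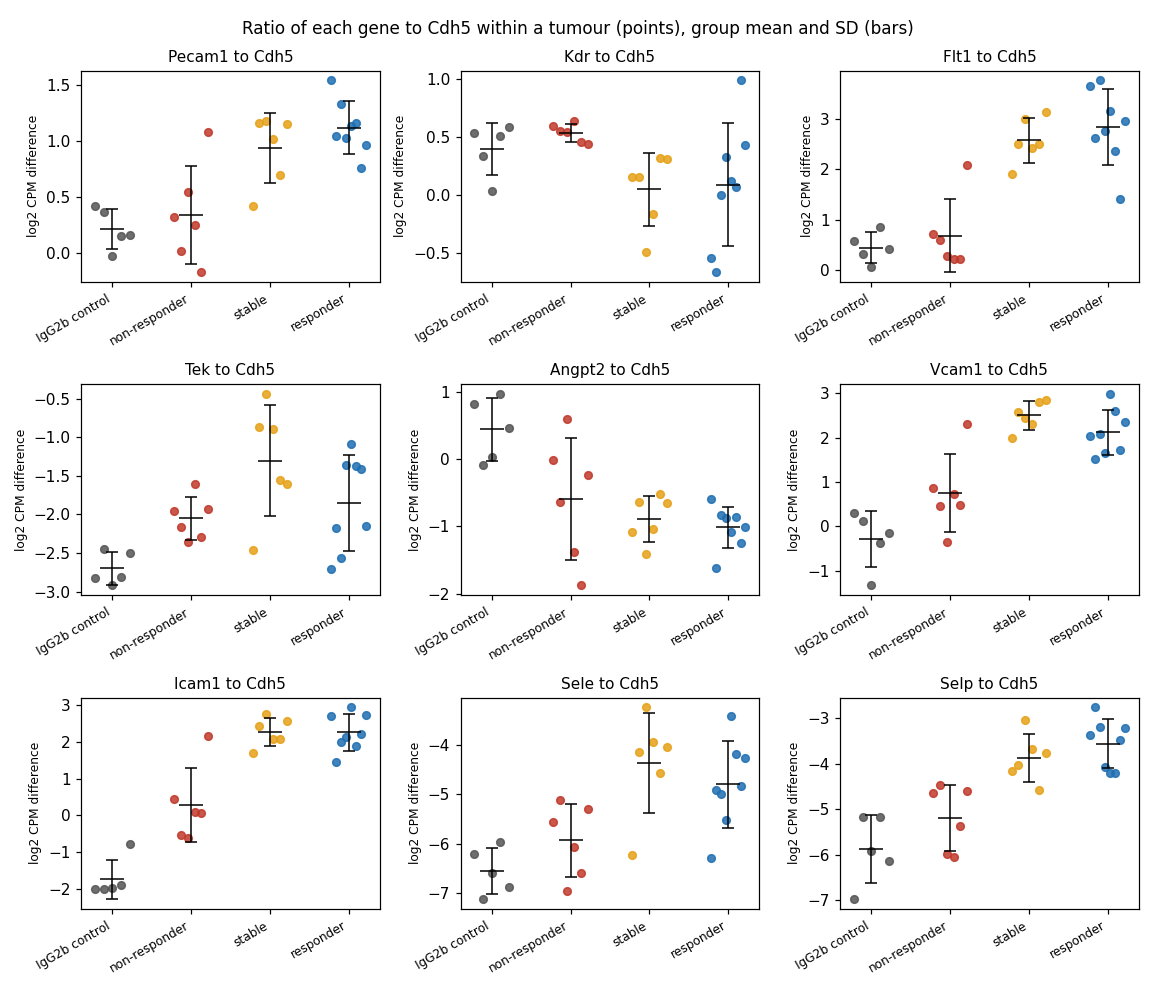
Log2 ratio of each gene to Cdh5 in the same tumour (y axis, difference of log2 CPM) by group, with 1 point per tumour and bars at the mean and 1 SD on each side; the y range is set per panel. Flt1, Vcam1, Icam1 and Selp sit higher in responders and stable tumours than in controls, whereas Angpt2 sits lower.

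Within groups, Kdr, Tek and Pecam1 varied with Cdh5, and Flt1 did not pass. After group means were removed, the log2 CPM of Cdh5 over the 25 tumours correlated with that of Kdr (Pearson r = 0.76, permutation p within groups = 7e-05, Spearman rho = 0.75, permutation p = 0.00011), Tek (r = 0.71, p = 0.00036, rho = 0.67, p = 0.00093) and Pecam1 (r = 0.71, p = 0.00043, rho = 0.71, p = 0.00037). Adjusted over 9 relations these p-values were 0.00063, 0.00129 and 0.00129 for r. Without responders 1 and 2, the tumours farthest from the median Cdh5 deviation, r was 0.78, 0.66 and 0.64. The relation to Kdr was lost with Pecam1 in place of Cdh5 (r = 0.33). Flt1 had r = -0.02 with Cdh5 (permutation p = 0.952, rho = 0.15, p = 0.518) and Angpt2 had r = 0.16 (p = 0.513, rho = 0.30, p = 0.185). Among adhesion genes the values were 0.36 for Vcam1, 0.27 for Icam1, 0.40 for Sele and 0.50 for Selp, of which Selp alone passed (permutation p = 0.0137, adjusted p = 0.0308, rho = 0.50, p = 0.0153), with r = 0.38 without those 2 responders. With Pecam1 in place of Cdh5 the Selp relation was lost (r = 0.42, adjusted p = 0.0847) and the Vcam1 relation passed (r = 0.53, adjusted p = 0.049).

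Among 13566 candidates, the smallest root mean square differences of mean-centred log2 CPM from Cdh5, whose own SD was 0.782, were found for Adgrf5 (0.177), Podxl (0.273), Adgrl4 (0.323), Rhoj (0.339) and Mmrn2 (0.359). The nearest to Sele (SD 0.986) were Pheta2 (0.598), Tfpi (0.610), Clec4a3 (0.610), Hacd4 (0.611) and Lpar1 (0.612). No gene was thus as close to Sele, which rests on few counts, as these 5 were to Cdh5. For Kdr, Flt1 and Icam1, chosen after their values were seen, the nearest were Podxl (0.345, Kdr SD 0.998), Pld3 (0.231, Flt1 SD 0.653) and Tnfrsf18 (0.232, Icam1 SD 1.28).

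The lists of related genes are read against all tested genes, of which 25.2% were higher and 23.8% lower in responders than in non-responders, and 7.08% higher and 7.86% lower in stable tumours. Among 24 other endothelial identity genes, 21 were lower and none higher in responders than in non-responders, with a median log2 fold change of -1.08; none had an unadjusted p under 0.05 for a rise in edgeR. In stable tumours against non-responders 9 were lower and none higher, and in responders against stable tumours 8 were lower and none higher. Emcn, a sialomucin of venous and capillary endothelium, fell by 2.08 on the log2 scale in responders (SE 0.23, edgeR adjusted p = 7.31e-06) and by 1.43 in stable tumours (SE 0.25, adjusted p = 0.00207), both over non-responders. Myct1 fell by 1.70 in responders (SE 0.33, adjusted p = 0.000413), and Robo4, a guidance receptor that steadies vessels, fell by 1.62 in stable tumours (SE 0.23, adjusted p = 0.000913). Most genes of this list were thus lower in responders, as Cdh5 and Kdr were.

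Of 24 genes of angiogenic sprouting, 13 were lower and 4 higher in responders than in non-responders, and 6 lower and 1 higher in stable tumours, with medians of -0.74 and -0.32. The 4 higher were a smaller share than the 25.2% of all tested genes. Esm1, a marker of endothelial tip cells, fell by 2.82 on the log2 scale in responders (SE 0.49, edgeR adjusted p = 0.000166) and by 2.47 in stable tumours (SE 0.52, adjusted p = 0.00454). Aplnr, the apelin receptor, fell by 1.97 (SE 0.42, adjusted p = 0.000914) and by 1.90 (SE 0.46, adjusted p = 0.00868). Vegfa, the ligand of Kdr and Flt1, was higher in responders (149 ± 42.0 CPM) than in non-responders (83.1 ± 29.1 CPM, SD), by a log2 fold change of 0.84 (SE 0.21, edgeR adjusted p = 0.00267). Jag1, a Notch ligand, was higher there by 0.78 (SE 0.25, adjusted p = 0.0129), and Nrp2, a VEGF and semaphorin co-receptor, was higher in stable tumours by 0.68 (SE 0.18, adjusted p = 0.0158).

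On the vessel wall's mural side, 4 of 9 pericyte and smooth muscle markers were lower in responders than in non-responders and 2 in stable tumours, with none higher and none with an unadjusted p under 0.05 for a rise in edgeR. The medians were -0.55 and -0.42, beside 0.05 and -0.02 over all tested genes. Rgs5 fell by 1.83 on the log2 scale in responders (SE 0.23, edgeR adjusted p = 1.11e-05) and by 1.56 in stable tumours (SE 0.25, adjusted p = 0.00117). Abcc9, a potassium channel subunit of pericytes, fell by 1.25 (SE 0.19, adjusted p = 5.14e-05) and by 1.00 (SE 0.20, adjusted p = 0.00368). Of the markers of other cells, 1 of 8 macrophage, 2 of 8 T cell and 2 of 4 platelet markers were higher in responders than in non-responders, and 1 of 8 fibroblast and 7 of 7 melanoma markers were lower. The T cell marker sum was 9.23 to 27.6 CPM in controls, while anti-CTLA-4 tumours had 24.0 to 200 CPM (non-responders), 149 to 225 CPM (stable) and 87.3 to 253 CPM (responders).

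Of 12 leukocyte counter-receptors of the adhesion genes, 3 were higher and 2 lower in responders than in non-responders, and 7 were higher and 1 lower in stable tumours, with median log2 fold changes of 0.57 and 1.08. The responder counts were near the shares of all tested genes called in each direction, and the 7 in stable tumours were above theirs. Itgal, the alpha chain of LFA-1 that binds ICAM-1, averaged 8.08 ± 4.45 CPM in controls. Under anti-CTLA-4 it averaged 48.9 ± 26.1 CPM where tumours grew, 111 ± 18.3 CPM where they were stable and 115 ± 16.4 CPM where they shrank (SD). It rose in responders over non-responders by 1.24 on the log2 scale (SE 0.31, edgeR adjusted p = 0.00287). Itgb2, the beta chain of LFA-1 and Mac-1, was higher in stable tumours by 1.41 (SE 0.40, adjusted p = 0.0194). Itga4, the alpha chain of the VCAM-1 receptor, went the other way, lower by 0.64 in responders (SE 0.19, adjusted p = 0.00931) and by 0.66 in stable tumours (SE 0.21, adjusted p = 0.0344). Its mean was highest in controls, at 322 ± 84.6 CPM (SD), where T cell and macrophage marker sums had their lowest medians. Itgb1, also of this list, was lower by 0.65 in responders (SE 0.18, adjusted p = 0.00618). Which cells made the RNA of these 2 genes was not tested. Itgb7, which pairs with Itga4, was higher by 1.04 in responders (SE 0.37, adjusted p = 0.0258) and by 1.51 in stable tumours (SE 0.40, adjusted p = 0.0137).

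Of 18 cytokine and NF-κB genes that act on or report endothelial activation, 10 were higher in responders and 13 in stable tumours than in non-responders, and none was lower or had an unadjusted p under 0.05 for a fall in edgeR. Against controls 17 were higher in responders, 18 in stable tumours and 14 in non-responders, where 36.1%, 22.2% and 10.6% of all tested genes were higher. The list medians over non-responders were 0.48 in responders and 0.82 in stable tumours. Il1b averaged 1.00 ± 0.216 CPM in controls. Under anti-CTLA-4 it averaged 9.27 ± 12.0 CPM where tumours grew, 41.2 ± 12.7 CPM where they were stable and 26.6 ± 14.3 CPM where they shrank (SD). It rose over non-responders by 2.14 on the log2 scale in stable tumours (SE 0.49, edgeR adjusted p = 0.00645) and by 1.52 in responders (SE 0.46, adjusted p = 0.00961). Lta, or lymphotoxin alpha, rose by 1.61 in both (SE 0.45 and 0.43, adjusted p = 0.0179 and 0.00421). These 10 genes were higher in responders than in non-responders while Vcam1, Icam1, Sele and Selp were not called.

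Of 16 transmigration genes tested, 7 were lower and 1 higher in responders than in non-responders, with a median log2 fold change of -0.13 beside 0.05 over all tested genes. Esam and Jam3, junction proteins of endothelium, fell by 1.08 each on the log2 scale (SE 0.18 and 0.22, edgeR adjusted p = 0.000111 and 0.000534). Cxcl16, a membrane chemokine, rose by 1.23 in responders (SE 0.36, adjusted p = 0.00761) and by 1.57 in stable tumours (SE 0.38, adjusted p = 0.00844). In stable tumours 5 were higher and 2 lower, the latter Esam (-1.32) and Ptprb, the endothelial phosphatase VE-PTP (-0.70, SE 0.23, adjusted p = 0.041). Of 9 selectin ligand and high endothelial venule genes tested, 5 were lower and 1 higher in responders, with a median of -0.57; Podxl fell by 1.38 (SE 0.23, adjusted p = 0.000144), Cd34 fell by 1.26 (SE 0.30, adjusted p = 0.00181), and Fut7, which builds selectin ligands on leukocytes, rose by 1.00 (SE 0.36, adjusted p = 0.0261).

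**Figure D5:**
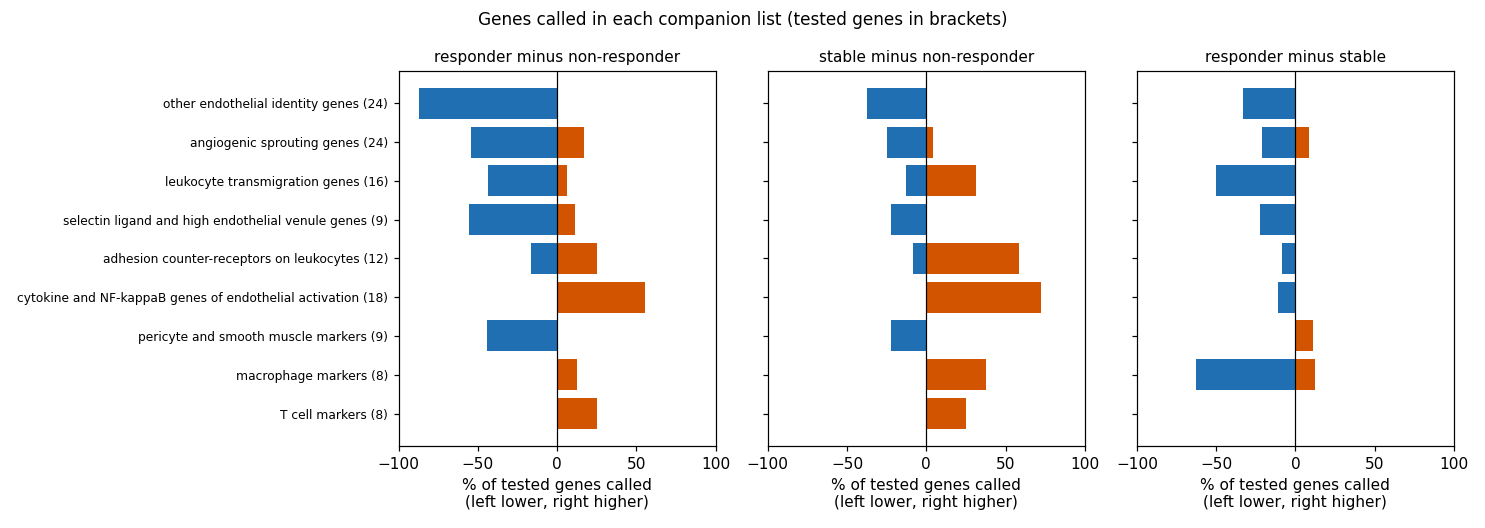
Share of the tested genes of each companion list (rows, number tested in brackets) called lower (left, blue) and higher (right, orange) in the comparisons of outcomes, in % on the x axis, from the edgeR fit at an adjusted p under 0.05. In responders against non-responders the endothelial list has 21 lower and 0 higher of 24, and the cytokine list 10 higher and 0 lower of 18.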

How the data were processed

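RNA from 25 tumours was analysed. Estimated counts for 55450 genes (expected counts, without normalization) and RPKM values were the 2 tables used, both as deposited by the authors. The submitters' processing notes name bcl2fastq 2.17, Trimmomatic, STAR 2.5.1, RSEM 1.2.22 and the build mm10, with no role or order; the labels give a stranded total RNA kit but polyA RNA as the molecule, which was not resolved. Of the estimated counts, 5.64% were not whole and were rounded. RPKM values, as deposited by the authors, were used for levels per length and as an alternative. All 55450 identifiers matched GENCODE release M21 for GRCm38, the source of gene coordinates. No column of another sample was present (0).

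Counts were fitted with edgeR 4.0.16 in R 4.3.3 (filterByExpr by group leaving 18031 genes, TMM, 4 group means, robust quasi-likelihood F tests, two-sided, Benjamini-Hochberg over all tested genes, called under 0.05). Ratios used log2 CPM with a prior count of 2, and relations used 100000 permutations within groups. Data were simulated for responders against non-responders, with changes put into 200 of 18031 genes and no other difference between groups. The fit found 77% of the 4-fold changes and 61% of the 2-fold changes, and 4.83% of its calls were false. Of the 4-fold changes it found 100% in genes of low dispersion and 52.1% in genes of high dispersion. The real comparison called 48.9% of genes in libraries of differing composition, so the false share need not hold there. Alternatives were DESeq2 1.42.0, limma 3.58.1 on log2(RPKM + 1) and log2(RPKM + 0.1), with and without a mean RPKM of at least 1, and RLE scaling. Others were different filters (none, or 1 CPM in 8 tumours with a mean count of 50), protein-coding genes only and their share per library as a covariate. The rest were the 2 groups alone, an edgeR test of whether a change exceeded 2-fold, and each tumour left out. Calls of list genes came from the main fit alone.

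Members and companion lists (other endothelial, sprouting, counter-receptor, selectin ligand, cytokine, transmigration, pericyte, macrophage, T cell, fibroblast, melanoma and platelet genes) were chosen with earlier results of these data known. All 10 members were named, and from each list the 2 highest and 2 lowest called genes averaging 1 CPM or more were eligible in responders or stable tumours against non-responders. Likeness was ranked over tested genes averaging 1 CPM or more, without predicted genes. Promoters came from RefSeq for GRCm38.p6, with 6 of the 10 members present; Kdr's window was shortened to the bases outside the annotated transcript.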

Additional observations from a re-analysis of the deposited data

Results flagged for a closer look

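In 5 of the 40 sets of levels tested (10 genes in 4 groups), 1 tumour stood apart from the rest of its group by Dixon's 95% critical value. Chance flags about 1 in 20 where values are normally distributed. The levels were CPM on a linear scale and every flagged tumour was the highest of its group, so that rate may not hold here. Kdr was 38.1 CPM in stable tumour 1, beside 16.0 to 24.2 CPM in the other stable tumours. Kdr was also high in responder 7, at 36.1 CPM beside 5.36 to 18.1 CPM in the other responders. Flt1 was 180.7 CPM in stable tumour 3, beside 110 to 131 CPM in its group. Tek was 19.9 CPM in non-responder 4, beside 6.53 to 11.0 CPM. Selp was 3.12 CPM in responder 2, beside 0.559 to 1.54 CPM, and without that tumour its log2 fold change over non-responders was -0.12 in place of 0.24.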

How the results depend on the processing

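The 33 calls of the 10 genes over 6 comparisons had the same sign in all 1217 alternative values computed for them. Counts of called genes moved most with the edgeR test of whether a change exceeded 2-fold. It gave 2 in responders against non-responders (6 without it), 0 in responders against stable tumours (5) and 0 in stable tumours against non-responders (4). Against controls it gave 3 in responders (7), 3 in stable tumours (8) and 1 in non-responders (3). In the comparisons with 0, that edgeR test gave 0 and 1 genes with an unadjusted p under 0.05. For responders against stable tumours the count was also 0 with the share of protein-coding counts as a covariate, 1 without responders 1 and 4, and 1 in each limma fit: log2(RPKM + 1), log2(RPKM + 0.1), and log2(RPKM + 1) with a mean RPKM of at least 1. For non-responders against controls it was 1 in a fit of the 2 groups alone. With 1 tumour left out it ranged from 3 to 7 in responders against stable tumours (3 without stable tumour 1 or 3), from 1 to 3 in non-responders against controls (1 without control 4), from 5 to 6 in responders against non-responders, from 4 to 6 in stable tumours against non-responders and from 7 to 8 in stable tumours against controls. The called ratios to Cdh5 numbered 28 to 32 of 54, and 26 with Pecam1 as the reference, 29 with a prior count of 0.5 and 31 on RPKM + 0.1.

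Values that changed sign were all uncalled or ratios. With the share covariate, the log2 fold changes were 0.30 for Vcam1 and 1.21 for Sele in responders over non-responders, 0.35 for Sele and 0.016 for Selp over stable tumours, and 0.21 for Tek over controls. Without responders 1 and 4, Vcam1 was 0.013 and Sele 0.20 over non-responders, and in limma Sele was 0.025 on log2(RPKM + 1) and 0.011 on log2(RPKM + 0.1). Without the low-count filter Cdh5 was -0.0046 in non-responders over controls. With Pecam1 as the reference, the ratio of Kdr was -0.14 in responders over stable tumours, and that of Tek was -0.58 over non-responders and -0.060 over controls, and the relation to Flt1 was 0.39. On RPKM + 0.1, the Angpt2 ratio was 0.18 in responders over non-responders and 0.44 over stable tumours, and the Icam1 ratio was 0.0041 over stable tumours. With 1 tumour left out, the ranges that crossed 0 were -0.40 to 0.035 for Vcam1, -0.45 to 0.071 for Sele and -0.12 to 0.35 for Selp in responders over non-responders, -0.28 to 0.23 for Tek in stable tumours over non-responders, -0.13 to 0.055 for Pecam1 in stable tumours over controls and -0.050 to 0.21 for Cdh5 in non-responders over controls. For ratios to Cdh5 they were -0.025 to 0.23 for Pecam1 and -0.043 to 0.34 for Flt1 in non-responders over controls, and -0.086 to 0.15 for Kdr and -0.13 to 0.10 for Icam1 in responders over stable tumours. The cause of these changes was not tested. No paired analysis was possible because the labels give each tumour its own mouse and no replicate number shared between groups. The depth limits Sele and Selp most, with at most 41 and 48 counts in a tumour.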
